A study of Homo sapiens with 3 samples.

Results

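SR, hnRNP and RBM proteins bind pre-mRNA and take part in choosing which of its exons are kept. The genes described here are the 70 protein genes whose symbols are SRSF, HNRNP or RBM followed by their own number or letters, of 20494 genes with a usable mRNA value, and the 461 circular RNAs (circRNAs) listed under such a host gene, of 92509 circRNAs. They comprised 11 SRSF, 22 HNRNP and 37 RBM genes, chosen by name and not by level. RNA depleted of ribosomal RNA was sequenced from 3 human cell lines grown in the same medium, with 1 library per line. HCC827 is a lung adenocarcinoma line with mutated EGFR, the receptor for epidermal growth factor, A549 a lung adenocarcinoma line with wildtype EGFR, and BEAS-2B an immortalized normal bronchial epithelial line that serves as the control. Each library comes from 1 established line, so a difference between lines cannot be told apart from what is particular to that line, its culture or its library, and with no replicates no test was run and no p is given. In bulk RNA, fewer cells with a transcript and less of it per cell cannot be told apart either.

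SR proteins carry an RNA recognition motif and a tail rich in arginine and serine, and mostly favour the use of nearby exons. The hnRNP proteins coat nascent RNA and often silence exons and compete with SR proteins on many transcripts. RBM genes share only the RNA-binding domain, and their products range from parts of the spliceosome to factors of RNA decay and regulators found in a few tissues. Many SR and hnRNP proteins also act on the splicing of their own pre-mRNA, which limits their level. circRNAs are closed loops of exons made by back-splicing, in which a splice donor is joined to an acceptor that lies before it in the gene.

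The deposited mRNA values are FPKM, a fragment count corrected for transcript length and library size by the authors. Low values were almost always written as exactly 1. Such a gene is described as listed at 1, which does not show that its mRNA is absent. Between 8812 and 8926 of the genes used were listed at 1 in each line. The circRNA values are TPM, shares of a total that is nearly the same in each line, and neither unit keeps the sequencing depth. The HCC827 column stood apart among circRNAs, with 4937 of them above 0, against 43950 in A549 and 42706 in BEAS-2B. Among markers of cell type, the 6 genes of simple epithelium summed to 1188 FPKM in HCC827, 1494 FPKM in A549 and 362 FPKM in BEAS-2B. KRT8 alone gave 1419 FPKM of the A549 sum, and the other 5 (EPCAM, CDH1, KRT7, KRT18 and KRT19) were each higher in FPKM in HCC827 than in A549. The 4 genes of the mesenchymal state (VIM, CDH2, FN1 and ZEB1) summed to 42.9, 278 and 590 FPKM in the same order. BEAS-2B had EPCAM and CDH1 listed at 1, and KRT18 and KRT19 at 1.61 and 1.84 FPKM. Its KRT7, at 74.4 FPKM, was higher than in HCC827 (26.3 FPKM) and A549 (17.5 FPKM). KRT8 was at 282 FPKM in BEAS-2B, against 91.6 FPKM in HCC827. The airway basal genes KRT5 and KRT14 stood at 1 in all 3 lines, and TP63 was above 1 only in A549 (2.03 FPKM). Of the lung lineage genes, NKX2-1 was above 1 only in HCC827 (9.92 FPKM), NAPSA was at 34.5 FPKM in HCC827, 1.14 FPKM in A549 and 1 in BEAS-2B, and SFTPB and SFTPC were at 1 throughout. Of the blood cell genes PTPRC and CD3E were at 1 in all lines and CD68 was at 29.1 FPKM in HCC827, 5.98 FPKM in A549 and 4.09 FPKM in BEAS-2B. Of the fibroblast genes COL1A1 was at 5.32, 5.21 and 60.6 FPKM in the same order, PDGFRB was above 1 only in BEAS-2B (12.5 FPKM) and COL1A2 was at 1 throughout.

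A gene was compared between lines when it was above 1 FPKM in at least 1 of them, and counted as higher or lower from a 2-fold difference of FPKM + 1. All differences are of log2(FPKM + 1), a scale that understates the change of low genes. Over all genes compared, the median difference was -0.14 for HCC827 minus BEAS-2B, -0.16 for A549 minus BEAS-2B and 0.02 for HCC827 minus A549. Dividing by median-of-ratios size factors moved these medians to 0.04, 0.03 and 0.01. With this scaling the lower genes made up 43.8% of those past 2-fold in HCC827, in place of 56.2%, and 43.3% in A549, in place of 59.3%. Values with this scaling are given beside the main counts and medians.

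Of the 70 genes, 3 were past 2-fold in the same direction in both cancer lines against BEAS-2B, comparisons that share the BEAS-2B library. They are 3 of the 64 compared in both, beside 12.3% of all genes compared in both. With scaling RBM47 alone kept 2-fold in both lines, as RBM22 (-0.88) and SRSF4 (-0.85) did not reach it in A549. RBM47, an RNA-binding cofactor of mRNA editing and a splicing regulator of epithelia, was higher, while RBM22, a zinc finger protein at the catalytic centre of the spliceosome, and SRSF4, an SR protein with a long arginine and serine tail, were lower. Their promoters are shown because these are the genes past 2-fold in both lines. The sequences are from RefSeq on GRCh38.p14 and run 5′ to 3′ on the strand of the gene, from 250 bases before its start to 50 after. Capitals mark 4 motifs on either strand, the GC box (GGGCGG), the CCAAT box (CCAAT), the TATA box (TATAAA) and an ETS motif (CCGGAAG). The windows are chr4:40630545-40630844 (minus strand) for RBM47, chr5:150701013-150701312 (minus strand) for RBM22 and chr1:29181851-29182150 (minus strand) for SRSF4.
RBM47: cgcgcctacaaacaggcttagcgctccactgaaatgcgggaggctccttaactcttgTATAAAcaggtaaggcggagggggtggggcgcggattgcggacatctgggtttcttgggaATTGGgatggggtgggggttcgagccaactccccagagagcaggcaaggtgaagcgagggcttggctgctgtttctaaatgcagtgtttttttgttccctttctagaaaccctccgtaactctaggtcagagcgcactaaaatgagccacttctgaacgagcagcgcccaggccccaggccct
RBM22: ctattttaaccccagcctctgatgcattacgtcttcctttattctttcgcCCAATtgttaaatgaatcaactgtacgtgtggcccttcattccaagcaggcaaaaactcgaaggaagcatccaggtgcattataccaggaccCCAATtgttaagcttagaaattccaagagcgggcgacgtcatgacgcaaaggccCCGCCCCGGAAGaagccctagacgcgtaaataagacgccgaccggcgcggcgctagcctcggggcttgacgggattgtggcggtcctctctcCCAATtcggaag
SRSF4: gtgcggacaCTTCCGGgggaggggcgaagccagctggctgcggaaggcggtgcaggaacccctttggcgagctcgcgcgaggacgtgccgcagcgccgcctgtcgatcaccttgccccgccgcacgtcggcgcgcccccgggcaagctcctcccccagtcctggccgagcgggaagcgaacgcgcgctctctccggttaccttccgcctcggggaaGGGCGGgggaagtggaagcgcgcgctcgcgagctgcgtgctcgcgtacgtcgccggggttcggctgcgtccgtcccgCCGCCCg
RBM47 had 1 TATA box and 1 CCAAT box, with 14 CG pairs in the window. RBM22 had 3 CCAAT boxes and 1 GC box that overlaps an ETS motif, with 22 CG pairs. SRSF4 had 2 GC boxes, 1 ETS motif and 48 CG pairs. RefSeq promoters were matched for 64 of the 70 genes. A GC box stood in 65.6% of them, against 44.6% of all 27305 promoters, a CCAAT box in 53.1% against 35.7%, an ETS motif in 20.3% against 10.7% and a TATA box in 10.9% against 12%. The 64 promoters had a median GC content of 63.5%, beside 58.3% for all promoters, and a median of 28 CG pairs, beside 14. The motif shares were not adjusted for this base content. Motif matches are letters in a window and say nothing of which factor binds there.

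HNRNPH1, which binds runs of G, and HNRNPA2B1, which coats pre-mRNA and takes part in RNA transport, had the highest mean level. HNRNPH1 was at 187 FPKM in HCC827, 223 FPKM in A549 and 432 FPKM in BEAS-2B. HNRNPA2B1 was at 206, 285 and 298 FPKM in the same order. The next were HNRNPC, which binds U tracts, HNRNPK, which binds C-rich RNA, HNRNPA1, a classical exon silencer, and HNRNPL, which binds CA repeats. HNRNPD, known for decay of AU-rich mRNAs, HNRNPAB, HNRNPF and SRSF9 completed the 10 highest, with SRSF9 at 91.0, 73.2 and 76.4 FPKM in HCC827, A549 and BEAS-2B. The median level of the 22 hnRNP genes was 47.3 FPKM in HCC827, 75.7 FPKM in A549 and 60.1 FPKM in BEAS-2B. The median of the 11 SR genes was 36.5, 35.9 and 69.5 FPKM and that of the 37 RBM genes 10.9, 10.1 and 12.1 FPKM. At the other end, RBM44, RBM46 and HNRNPCL1 were listed at 1 in all 3 lines, and 4 genes (SRSF12, RBM11, RBM20 and RBM24) in some of them. The other 63 were above 1 in every line.

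**Figure D1:**
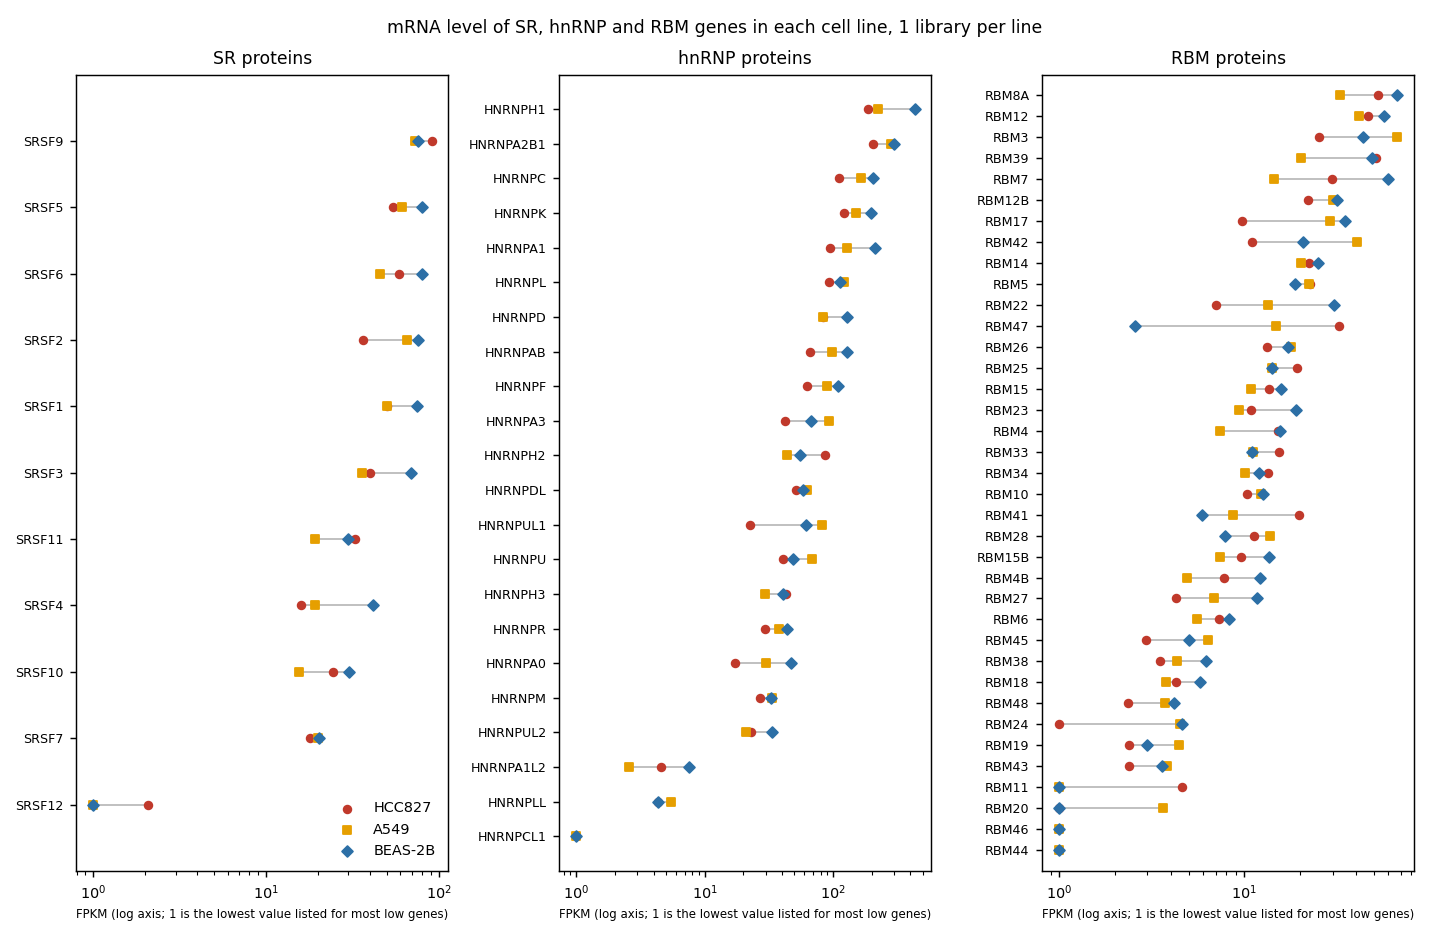
FPKM on a log axis of the 11 SR, 22 hnRNP and 37 RBM genes, with 1 symbol per cell line (1 library each) and a grey line over their range. BEAS-2B, the blue diamond, is the rightmost symbol for 38 of the 63 genes above 1 FPKM in all 3 lines, and RBM47 is the clear case of the opposite order.

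Without median-of-ratios scaling, the summed mRNA of the group was lower in both cancer lines than in BEAS-2B. It came to 2377 FPKM in HCC827, 2788 FPKM in A549 and 3564 FPKM in BEAS-2B. This is 0.794%, 0.894% and 1.29% of the FPKM of all genes. The sums were not scaled. With scaling the median difference per gene from BEAS-2B was -0.26 in HCC827 and only -0.06 in A549. SR genes summed to 425 FPKM in HCC827, 408 FPKM in A549 and 580 FPKM in BEAS-2B, and hnRNP genes to 1421, 1856 and 2329 FPKM. The RBM genes summed to 532, 525 and 655 FPKM. HCC827 was the lowest line for 34 of the 63 genes above 1 in all lines, while 38.7% of all such genes were lowest there. BEAS-2B was the highest line for 38 of the 63, while 44.5% of all such genes were highest there. After median-of-ratios scaling the 2 counts were 32 and 27, beside 34.6% and 33.5% of all genes.

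In HCC827 against BEAS-2B, most of the splicing genes had values below 0 but few passed 2-fold. Of 66 compared, 3 were higher and 10 lower, while 12.9% of all genes compared were higher and 16.6% lower. The share of lower genes among the 66 was thus 15.2%, near that of all genes. The median difference was -0.45, beside -0.14 for all genes, and the values of 52 of the 66 were below 0 (45 with scaling), beside 56.1% of all genes. Among genes that reached 10 FPKM in either line the medians lay closer, at -0.48 for 54 of the splicing genes and -0.30 for all. By family, the median was -0.42 for SR genes, -0.62 for hnRNP genes and -0.35 for RBM genes. None of the SR or hnRNP genes was higher by 2-fold, while 2 SR and 4 hnRNP genes were lower. With median-of-ratios scaling the median of all 66 was -0.26, with -0.20 for SR, -0.41 for hnRNP and -0.14 for RBM genes, and 7 of the 10 remained past 2-fold.

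The lower genes include parts of the spliceosome as well as regulators of splice sites. RBM22 was at 7.08 FPKM in HCC827 and 30.5 FPKM in BEAS-2B, a difference of -1.96. RBM17, which acts in choosing 3′ splice sites, was at 9.69 FPKM in HCC827 and 35.0 FPKM in BEAS-2B (-1.75). A549 stood near BEAS-2B for RBM17, with 29.1 FPKM. RBM24, a regulator of muscle splicing, was listed at 1 in HCC827, against 4.61 FPKM in BEAS-2B (-1.49), and this value rests on the added pseudocount. HNRNPUL1, which also takes part in the response to DNA breaks, was at 22.4 FPKM in HCC827 and 61.7 FPKM in BEAS-2B (-1.42). HNRNPA0, which binds AU-rich RNA, was at 17.1 and 47.5 FPKM (-1.42). SRSF4 was at 16.0 FPKM in HCC827 and 41.9 FPKM in BEAS-2B (-1.33), and RBM27, a factor of nuclear RNA decay, at 4.29 and 11.7 FPKM (-1.26). These 7 stayed past 2-fold after scaling. The remaining 3 did not, namely HNRNPH1 (-1.20, scaled -0.98), HNRNPA1 (-1.14, scaled -0.92) and SRSF2, which reads exonic enhancers (-1.04, scaled -0.82). HNRNPA1 was at 95.3 FPKM in HCC827 and 211 FPKM in BEAS-2B, and SRSF2 at 36.5 and 76.3 FPKM. Some of these genes have near copies, such as HNRNPA1 with HNRNPA1L2 and HNRNPH1 with HNRNPH2, and how shared reads were divided is not known.

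The 3 higher genes were all of the RBM family. RBM47 was at 32.5 FPKM in HCC827 and 2.58 FPKM in BEAS-2B, a difference of 3.23, which is larger than that of 98.9% of all genes compared. RBM41 was at 19.7 FPKM in HCC827 and 5.93 FPKM in BEAS-2B (1.58). RBM11, a regulator known from brain and testis, was at 4.6 FPKM in HCC827 and listed at 1 in BEAS-2B (1.49). Of the 6 markers of simple epithelium, 4 were higher and 2 (KRT7 and KRT8) lower in HCC827 than in BEAS-2B. All 4 mesenchymal markers were lower, with CDH2 and ZEB1 listed at 1 in HCC827. The part of these differences in the level of RBM47 was not tested.

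In A549 against BEAS-2B, 5 of the 7 lower calls were lost with scaling. Of 65 genes compared, 2 were higher and 7 lower, beside 10.5% higher and 15.3% lower over all genes. The median was -0.29 for the 65 and -0.16 for all genes, with -0.58 for SR, -0.33 for hnRNP and -0.18 for RBM genes. With scaling these were -0.34, -0.08 and 0.03, so the direction of the RBM median turned. Among genes that reached 10 FPKM in either line the medians were nearly the same, at -0.33 for 53 of the splicing genes and -0.29 for all. Values below 0 were seen in 46 of the 65 genes (36 with scaling), beside 58.6% of all genes without scaling. They included all 10 SR genes compared, and 7 of 10 after scaling. Only SRSF4 among the SR genes passed 2-fold, at 19.2 FPKM in A549 and 41.9 FPKM in BEAS-2B (-1.08). RBM7, a subunit of a complex that hands nuclear RNA to the exosome, was at 14.4 FPKM in A549, against 59.7 FPKM in BEAS-2B (-1.97). RBM39, a splicing cofactor, was at 20.3 FPKM in A549 and 48.9 FPKM in BEAS-2B (-1.23), while HCC827 had 51.8 FPKM. The other lower genes were HNRNPA1L2 (-1.25), RBM4B (-1.15), RBM22 (-1.12) and RBM8A, a core protein of the exon junction complex (-1.01). After scaling only RBM7 (-1.74) and HNRNPA1L2 (-1.05) remained lower. RBM22 then stood at -0.88 and SRSF4 at -0.85, so that both kept their direction in A549 but not the 2-fold size. Higher in A549 were RBM47, at 14.9 FPKM against 2.58 FPKM in BEAS-2B (2.15), and RBM20, the splicing regulator of titin in heart, at 3.64 FPKM in A549 and listed at 1 in BEAS-2B (1.22). RBM42 also passed 2-fold after scaling, at 1.18. The median over the 65 was then -0.06.

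**Figure D2:**
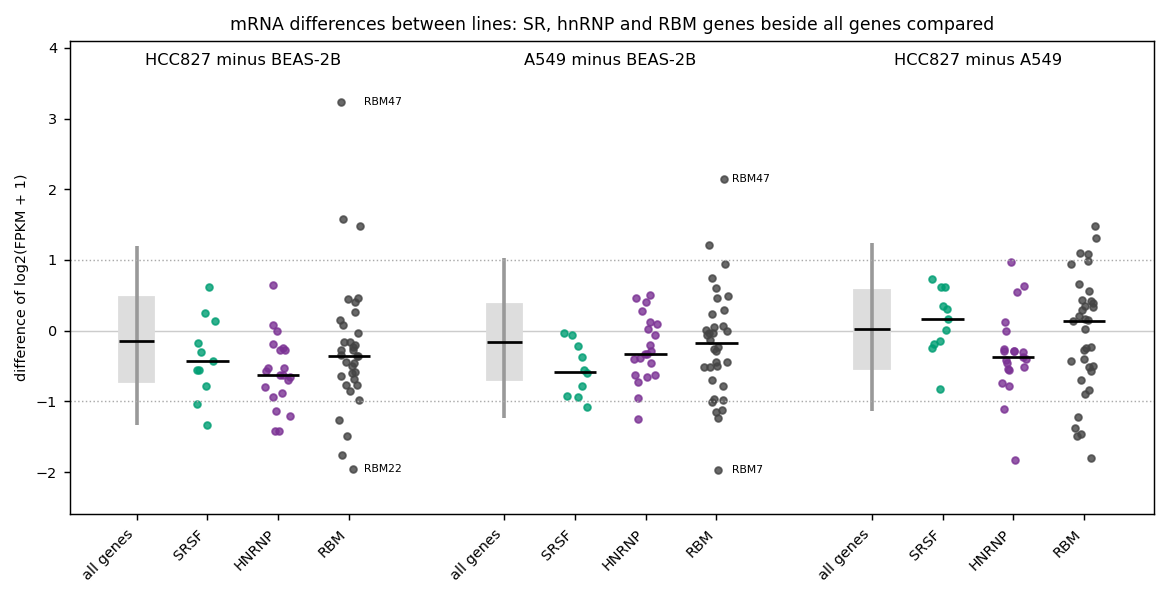
Differences of log2(FPKM + 1) for the 3 pairs of lines. Grey boxes span the quartiles of all genes compared, grey lines their 10th to 90th percentile and black bars medians, and each point is 1 SR, hnRNP or RBM gene. The hnRNP points of HCC827 minus BEAS-2B centre on -0.62, below the box median of -0.14, while RBM47 lies at 3.23, above all other points.

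Between the cancer lines, the hnRNP median lay below 0 and the SR and RBM medians above it. Of 67 genes compared, 4 were higher and 7 lower in HCC827 than in A549, beside 13.8% higher and 12.4% lower over all genes. The median was -0.37 for hnRNP, 0.16 for SR and 0.13 for RBM genes, beside 0.02 for all genes. With scaling they were -0.39, 0.14 and 0.12. HNRNPUL1 differed most, with 22.4 FPKM in HCC827 and 82.2 FPKM in A549 (-1.83). RBM42 was at 11 FPKM in HCC827, 40.8 FPKM in A549 and 20.7 FPKM in BEAS-2B. RBM3, induced by cold, was at 25.3, 66.9 and 43.9 FPKM and HNRNPA3 at 42.3, 92.6 and 67.2 FPKM in the same order. BEAS-2B lay between the cancer lines for all 3 of these genes. The differences of HCC827 minus A549 were -1.80 for RBM42, -1.37 for RBM3 and -1.11 for HNRNPA3. RBM17, RBM24 and RBM20 completed the 7 lower genes. RBM11, RBM39, RBM41 and RBM47 were the 4 higher ones, with differences of 1.49, 1.31, 1.10 and 1.08. The comparisons share libraries, so that a value in 1 line enters 2 of them.

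Other genes of the splicing machinery, were taken from 7 lists of 77 genes. Against BEAS-2B, 4 of 72 genes compared were higher and 9 lower in HCC827, and 2 of 71 higher and 8 lower in A549. These are 5.56% and 12.5% in HCC827, beside 12.9% and 16.6% of all genes, and 2.82% and 11.3% in A549, beside 10.5% and 15.3%. Their median difference was -0.32 in HCC827 and -0.23 in A549, and -0.11 and -0.0041 with scaling. With scaling 3 of the 9 lower calls in HCC827 (SF3A1, SF3A3 and QKI) and 5 of the 8 in A549 remained, the higher calls were all kept, and PCBP1 joined them in A549 (1.01). The U2 proteins and factors of the 3′ splice site had 4 of 12 genes lower in HCC827, the subunits SF3A1 (-1.31), SF3A2 (-1.02), SF3A3 (-1.31) and SF3B4 (-1.10), of which SF3A2 (-0.81) and SF3B4 (-0.89) were under 2-fold with scaling. SF3A1 was at 15.5 FPKM in HCC827, 20.9 FPKM in A549 and 39.8 FPKM in BEAS-2B. SF3B14, an older name of SF3B6, was at 43.0 FPKM in HCC827, 5.50 FPKM in A549 and 37.1 FPKM in BEAS-2B. SRPK1, the main kinase of SR proteins, was at 9.5, 17.8 and 20.3 FPKM, and the Sm protein gene SNRPB at 60.1, 147 and 134 FPKM. PRPF6 of the tri-snRNP was lower in HCC827 (-1.12, scaled -0.90), and CLK2 (-1.18, scaled -0.97), CLK4 (-1.0, scaled -0.80), SRRM1 (-1.24) and SFPQ (-1.39) were lower in A549. Regulators of tissue and lineage splicing had 4 of 20 genes higher and 2 lower in HCC827, and 2 of 18 higher and 3 lower in A549. ESRP1, which sets epithelial splicing, was at 49.3 FPKM in HCC827 and listed at 1 in A549 and BEAS-2B, and ESRP2 was at 15.1 FPKM in HCC827, listed at 1 in A549 and at 3.12 FPKM in BEAS-2B. QKI, which binds introns that flank circularized exons, was at 10.9 FPKM in HCC827, 27.3 FPKM in A549 and 74.1 FPKM in BEAS-2B. RBFOX3, known from neurons, was at 43.4 FPKM in A549 and listed at 1 in the other 2 lines. MBNL2 was at 6.58, 3.03 and 13.1 FPKM in HCC827, A549 and BEAS-2B and RBFOX2 at 5.41, 6.14 and 12.5 FPKM. MBNL3 (4.34 FPKM) and KHDRBS3 (3.79 FPKM) were above 1 only in HCC827, and NOVA1 reached 3.86 FPKM in A549.

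The 461 circRNAs came from 51 host genes, 272 of them from RBM, 150 from HNRNP and 39 from SRSF hosts. Of the 51 hosts, 50 had an mRNA row, and the exception HNRNPA3P1 had 1 circRNA. RBM5, a regulator of splicing and apoptosis, was listed with 48 circRNAs, RBM27 with 33, RBM33 with 31, HNRNPA1 with 25, RBM6 with 23, RBM39 with 20, HNRNPA2B1 with 16 and HNRNPH1 and RBM26 with 15 each, while 6 hosts had a single one. Positions are on hg19 as the table gives them, with no statement of whether starts count from 0 or 1, and the distance from start to end ran from 51 to 207369 bases with a median of 4018, beside 8282 for all circRNAs. Of the 461, 232 (50.3%) were at 0 in every line, beside 45.9% of all circRNAs. Above 0 were 49 in HCC827, 203 in A549 and 201 in BEAS-2B. This is 10.6% of the 461 in HCC827, 44.0% in A549 and 43.6% in BEAS-2B, beside 5.34%, 47.5% and 46.2% of all circRNAs. Above 5 TPM were 47, 148 and 153, or 10.2%, 32.1% and 33.2%, beside 4.65%, 22.7% and 23.4% of all. The share above 5 TPM was thus larger among circRNAs of these hosts than among all circRNAs in each line. The values above 0 include traces as small as 6.37e-07 TPM in HCC827, 4.11e-10 TPM in A549 and 2.47e-09 TPM in BEAS-2B. Neither the circRNA program nor its handling of reads from the linear mRNA of a host is given in the sources used here.

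**Figure D3:**
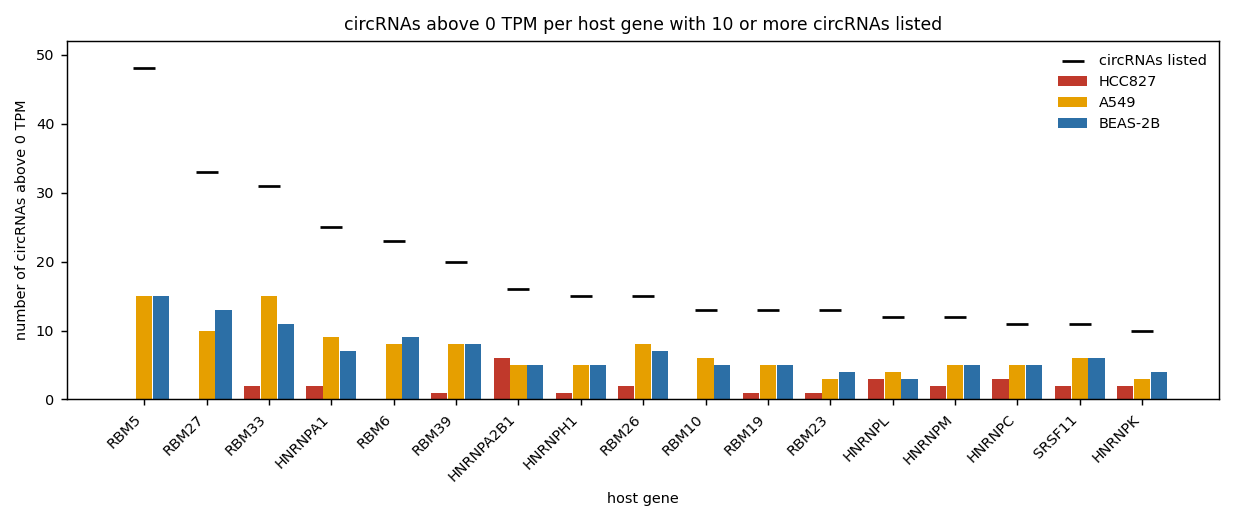
Number of circRNAs above 0 TPM in HCC827, A549 and BEAS-2B (bars, 1 library each) for the 17 host genes with 10 or more circRNAs listed, with black marks at the number listed. RBM5 shows 15 in A549 and BEAS-2B and none in HCC827, while HNRNPA2B1 shows 6 in HCC827 against 5 in each of the other lines. The 6 include a trace, hsa_circ_0079644 at 0.00994 TPM in HCC827.

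A smaller share of these hosts than of all hosts had no circRNA in HCC827, a description with no test. Of the 50 hosts with a circRNA above 0 in both A549 and BEAS-2B, 21 (42%) had none in HCC827, beside 70.2% of all such hosts. HNRNPR gave the most abundant circRNA of the group, hsa_circ_0010848 (chromosome 1, 23640045 to 23640195), at 0 in HCC827, 2600 TPM in A549 and 3497 TPM in BEAS-2B. Its mRNA was at 29.4 FPKM in HCC827, 38.2 FPKM in A549 and 44.1 FPKM in BEAS-2B. RBM5 circRNAs summed to 0 in HCC827, 103 TPM in A549 and 222 TPM in BEAS-2B, with mRNA at 22.8, 22.3 and 18.8 FPKM. HNRNPD, RBM7, HNRNPA3, RBM17, RBM25, SRSF4 and SRSF7 were likewise at 0 in HCC827. Of 138 circRNAs above 5 TPM in both A549 and BEAS-2B, 109 (79.0%) were at 0 in HCC827, beside 88.0% of all such circRNAs, so these hosts do not stand out for circRNAs missing there. Of these 109, 57 belonged to hosts with another circRNA above 0 in HCC827 and 52 to hosts with none. The same split was not made over all circRNAs, so it does not show whether these hosts differ from others.

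Some circRNAs were listed in HCC827 alone, at the share seen over all circRNAs. Of the 47 circRNAs above 5 TPM in HCC827, 11 (23.4%) were at 0 in A549 and BEAS-2B, beside 23.2% of all those above 5 TPM there. hsa_circ_0017275 of HNRNPU, at 442 TPM in HCC827 and 0 in A549, is not counted because BEAS-2B held a trace of 2.47e-09 TPM. The highest of the 11 was hsa_circ_0050938 of HNRNPL (chromosome 19, 39331127 to 39334554), at 1511 TPM in HCC827. It was followed by hsa_circ_0079655 (935 TPM) and hsa_circ_0079654 (605 TPM) of HNRNPA2B1, hsa_circ_0017277 of HNRNPU (546 TPM) and hsa_circ_0050625 of RBM42 (282 TPM), whose values are identical to those of another circRNA in the table. The other 6 came from HNRNPU, HNRNPK, HNRNPH1, HNRNPM, SRSF6 and RBM4, between 43.4 and 218 TPM. The values of the HNRNPM circRNA, hsa_circ_0049068 (79.7 TPM), are likewise identical to those of another circRNA. All 11 overlapped in position with another circRNA of the same host that was above 5 TPM in BEAS-2B, beside 92.1% of all such circRNAs with a host. For example, hsa_circ_0079654 (chromosome 7, 26236934 to 26237352) lies at the same end as hsa_circ_0079651 (26235466 to 26237352), which was at 168 TPM in HCC827, 425 TPM in A549 and 407 TPM in BEAS-2B. Only start and end positions were compared, not the exons in the circles. The circRNAs of a host were also summed. These sums were 2363 TPM in HCC827, 1280 TPM in A549 and 1184 TPM in BEAS-2B for HNRNPA2B1, 1702, 291 and 279 TPM for HNRNPL and 1531, 364 and 343 TPM for HNRNPU, a scaffold protein of the nucleus. Divided by median-of-ratios size factors of the circRNAs, the HNRNPA2B1 sums were 1141, 1925 and 1614, which turns their direction, while HNRNPL (822, 438 and 380.0) and HNRNPU (739, 547 and 468) kept theirs. The FPKM of each of the 3 was smaller in HCC827 than in BEAS-2B by less than 2-fold, with HNRNPU at 41.1 FPKM in HCC827, 69.3 FPKM in A549 and 48.7 FPKM in BEAS-2B. Of the 50 hosts above 0 in HCC827 or BEAS-2B, 12 had a higher sum in HCC827, beside 18.5% of all such hosts, and 5 did with scaling, beside 10.1%.

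The sum over all 461 circRNAs was 9702 TPM in HCC827, 13513 TPM in A549 and 16107 TPM in BEAS-2B, or 0.968%, 1.35% and 1.61% of all circRNA TPM. The share was thus lowest in HCC827, as it was for the mRNAs. HNRNP hosts made up most of it, with 7474, 9013 and 10387 TPM, followed by RBM hosts with 1643, 3359 and 4208 TPM and SRSF hosts with 585, 1142 and 1513 TPM. Without HNRNPR, whose 3 circRNAs above 0 summed to 2823 TPM in A549 and 3753 TPM in BEAS-2B, the sums were 9702 TPM in HCC827, 10689.8 TPM in A549 and 12354 TPM in BEAS-2B. Other circRNAs among the highest in A549 and BEAS-2B were hsa_circ_0050620 of RBM42 (0, 736 and 399 TPM in HCC827, A549 and BEAS-2B), hsa_circ_0057165 of HNRNPA3 (0, 652 and 329 TPM), hsa_circ_0079643 of HNRNPA2B1 (0, 523 and 430 TPM), hsa_circ_0024332 of RBM7 (0, 127 and 451 TPM) and hsa_circ_0060140 of RBM39 (0, 225 and 407 TPM). Each was at 0 in HCC827.

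Above 5 TPM in each of the 3 lines were 28 circRNAs of 23 hosts, or 6.07% of the 461, beside 2.15% of all circRNAs. In HCC827 against BEAS-2B without scaling, 13 of the 28 were 2-fold higher and 4 were lower. This stands beside 62.2% and 4.98% of all circRNAs above 5 TPM in each line. Their median ratio was 1.60, below the 2.79 of all such circRNAs. The HCC827 total is spread over fewer circRNAs (4937 above 0). Median-of-ratios scaling turned the direction, with a median log2 ratio of -0.82 in place of 0.68. The circRNA size factors were 2.07 in HCC827, 0.665 in A549 and 0.734 in BEAS-2B. Counts past 2-fold of the 28 were not made with scaling, so those with HCC827 hold for unscaled TPM only. In HCC827 against A549, 14 were higher and 4 lower, beside 65.9% and 4.73% of all, and the median log2 ratio of 0.89 turned to -0.75 with scaling. In A549 against BEAS-2B, none was 2-fold higher and 2 were lower, beside 8.05% higher and 12.4% lower, with a median ratio of 0.886 beside 0.900 for all.

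Among the 28, the largest ratios of HCC827 over BEAS-2B came from RBM34, a nucleolar protein gene, HNRNPA2B1, RBM4 and RBM39. Values and ratios of single circRNAs are given without scaling, which lowers HCC827 against both other lines. hsa_circ_0017039 of RBM34 (chromosome 1, 235294497 to 235299085) was at 73.8 TPM in HCC827, 6.64 TPM in A549 and 5.78 TPM in BEAS-2B, a ratio of 12.8. hsa_circ_0079646 of HNRNPA2B1 was at 507, 37.9 and 52.7 TPM (9.62) and hsa_circ_0000330 of RBM4 at 264, 27.6 and 30.6 TPM (8.62) in the same order. In each of these the 2 other lines stood close together. hsa_circ_0060138 of RBM39 was at 223 TPM in HCC827, 10.7 TPM in A549 and 26.5 TPM in BEAS-2B, with the low value in A549 like that of the RBM39 mRNA. hsa_circ_0003643 of HNRNPC was at 671, 147 and 115 TPM, while hsa_circ_0031144 and hsa_circ_0031149 of the same host differed by less than 2-fold between any 2 lines. The 4 circRNAs lower without scaling belonged to HNRNPA1, HNRNPK, HNRNPUL1 and HNRNPA2B1. hsa_circ_0026715 of HNRNPA1 (chromosome 12, 54676862 to 54679030) was at 32.1 TPM in HCC827, 121 TPM in A549 and 156 TPM in BEAS-2B, a ratio of 0.205 to BEAS-2B. A second circRNA of HNRNPA1, hsa_circ_0026716, was at 29.2, 13.3 and 14.1 TPM. Its ratio of 2.07 to BEAS-2B lay above 1 but below the median of 2.79 for all circRNAs above 5 TPM in each line. hsa_circ_0087366 of HNRNPK stood at a ratio of 0.295, hsa_circ_0051208 of HNRNPUL1 at 0.320 and hsa_circ_0079651 of HNRNPA2B1 at 0.412. The HNRNPUL1 circRNA, at 51.5 TPM in HCC827 and 161 TPM in BEAS-2B and highest in A549, had the order of its mRNA. In A549, the lower pair were hsa_circ_0022512 of HNRNPUL2 (5.89 TPM against 31.1 TPM in BEAS-2B) and that of RBM39.

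**Figure D4:**
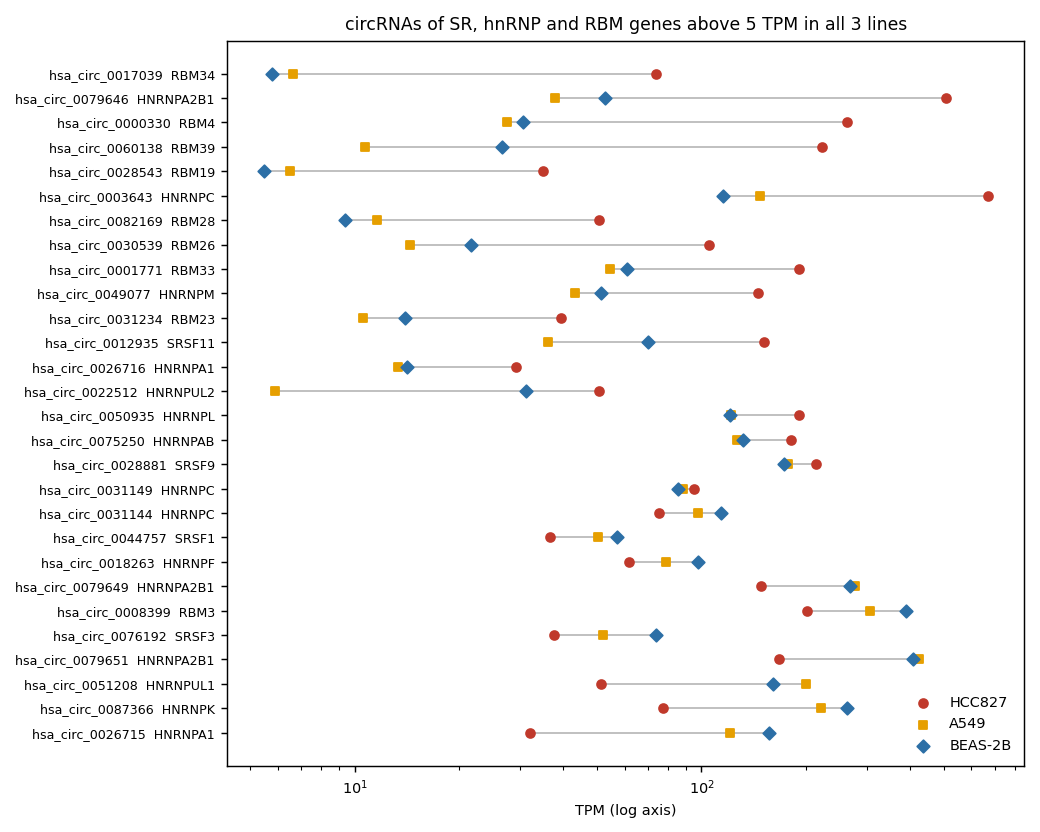
TPM on a log axis of the 28 circRNAs above 5 TPM in HCC827, A549 and BEAS-2B (1 library each), sorted by HCC827 over BEAS-2B with the largest at the top. The A549 and BEAS-2B symbols lie close together in most rows, while HCC827 lies to the right in the upper rows and to the left in the lower ones. Values are without scaling, which lowers HCC827 against both other lines.

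Across the 50 hosts with both, which share 1 library per line and are no replicates, the Spearman correlation of summed circRNA TPM with FPKM was 0.407 in HCC827, 0.712 in A549 and 0.661 in BEAS-2B, beside 0.424, 0.770 and 0.776 over 10690 hosts. Between A549 and BEAS-2B, 29 of the 50 hosts were lower in A549 for both mRNA and summed circRNA and 9 were higher for both, beside 45.1% and 29.0% of all such hosts. These counts are without scaling. RBM7, for example, had circRNAs summing to 213 TPM in A549 and 776 TPM in BEAS-2B beside the low mRNA in A549, and RBM42 had 797 and 439 TPM beside the high one. In RBM5 the directions differed, with circRNAs at 103 and 222 TPM beside mRNA at 22.3 and 18.8 FPKM. RBM47 circRNAs summed to 26 TPM in HCC827, from 1 circRNA, 20.1 TPM in A549 and 3.95 TPM in BEAS-2B, the order of its mRNA. Divided by the circRNA size factors, the RBM47 sums were 12.5, 30.2 and 5.38. The order of HCC827 and A549 thus turned, while both stayed above BEAS-2B.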

How the data were processed

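The authors deposited FPKM for mRNAs and TPM for circRNAs, from 1 library of each of HCC827, A549 and BEAS-2B. Trimming (PEAT), alignment (STAR 2.5.3a) and FPKM estimation (Cufflinks 2.2.1 on GENCODE 21) are described with a mouse build, mm10, for these human lines. The submitters' processing notes give hg19 and, with no role, kallisto, sleuth and FastQC 0.11.7. Which of these made the circRNA values is not given in the sources used here. Both units keep no depth, so no counting interval could be given. Ratios computed by the authors and lists of predicted miRNA targets were not used.

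Of 20635 mRNA rows, 141 with a repeated name or a name that had become a number were left out. Genes above 1 FPKM in at least 1 line of a pair were compared on log2(FPKM + 1), and circRNAs above 5 TPM in each line as log2 ratios. Shares over all genes, circRNAs or hosts stand beside counts past a threshold. Computation used Python 3.11.15 with pandas 2.3.3 and scipy 1.17.1, and the counting was tested on simulated data. The genes, lists and criteria were chosen with earlier results of these data known. Names were drawn from a rule that takes all genes past 2-fold in any pair, the 10 highest by mean, those listed at 1, the 10 hosts with most circRNAs and the 10 highest circRNAs per line, those above 5 TPM in all lines, and members of 7 lists of splicing genes past 2-fold. The order of lines, the overlap of circRNA positions, the sums per host, the level of 10 FPKM and the scaling of list genes and host sums were added after the values were seen. SF3B6 was matched by its RefSeq synonym, and promoters by symbol. circRNAs listed under the older host names HNRPDL and HNRPLL are not included.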

Additional observations from a re-analysis of the deposited data

How the results depend on the processing

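No paired analysis was possible because each line has a single library, which also leaves no replicate error. Of the mRNA counts, a 1.5-fold limit in place of 2-fold gave 5 higher and 25 lower in HCC827 against BEAS-2B, 5 and 20 in A549 against BEAS-2B, and 12 and 13 in HCC827 against A549. Median-of-ratios scaling brought the 7 lower genes of A549 to 2, and the medians to -0.26 in HCC827 and -0.057 in A549 against BEAS-2B. Asking for 5 FPKM, or for 10 FPKM as chosen after seeing the data, left 1 gene higher in A549 against BEAS-2B, and without a pseudocount 7 genes were higher in HCC827 against A549. Above 10 TPM in place of 0 stood 119 circRNAs in A549 and 128 in BEAS-2B. Leaving HCC827 out, chosen after seeing the data, gave 138 circRNAs above 5 TPM in both other lines, with a median log2 ratio of A549 to BEAS-2B of -0.27. For circRNAs above 5 TPM in each line, scaling turned the median log2 ratio to -0.82 in HCC827 against BEAS-2B and -0.75 in HCC827 against A549, and gave -0.032 in A549 against BEAS-2B. At 1 TPM the medians involving HCC827 were 1.05 and 1.13, and at 10 TPM 0.38 and 0.39, against BEAS-2B and A549 in that order. The cause of these shifts was not tested. Depth, which the values do not keep, limits every low value here.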
